A study of Mus musculus with 17 samples.

Results

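The IκB kinase (IKK) family and the kinases and adaptors directly above it were followed as 10 genes in cultured peritoneal macrophages (PMs). The genes were taken by symbol: Ikbkb, Chuk and Ikbkg of the IKK complex, the IKK-related kinases Ikbke and Tbk1, the TAK1 genes Map3k7, Tab1 and Tab2, and the MAP3 kinases Map3k8 and Map3k14. Each symbol matched 1 of the 21683 rows of the expression table. All 10 were at or above 2.11 TPM in every library, so all 10 were among the 10451 genes that could be tested, which had 1 TPM or more in 5 libraries or more. The question was whether transcripts of the other IKK genes and of the upstream kinases differ when Ikbkb is deleted.

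RNA-Seq was read in 17 libraries of PMs from male C57BL/6 mice, 8 weeks old, that all lacked the LDL receptor and all carried loxP-flanked IKKβ alleles. F/F PBS (n = 6 libraries) were IKKβF/FLDLR-/- PMs given PBS as the control, and F/F Tat (n = 6) were PMs of the same genotype given the HIV protein Tat as a recombinant protein at 100 nM. ΔMye Tat (n = 5, libraries 19 to 23) were IKKβΔMyeLDLR-/- PMs given the same Tat treatment, and these mice also had 1 copy of a LysM-Cre knock-in, which drives Cre in myeloid cells and sits in the Lyz2 gene. PMs were elicited with 1 mL of 3% thioglycollate, given 3 days before collection by the sample labels and 4 days by the methods, left to attach for 4 h and treated for 12 h. PBS-treated IKKβΔMyeLDLR-/- PMs were not analysed here. ΔMye Tat and F/F Tat differ by genotype with Tat present in both, and a difference that was there before Tat cannot be told apart from one in the response. Only the IKKβΔMye mice carried the Cre knock-in, so loss of Ikbkb and the knock-in itself cannot be told apart. Below, deletion stands for this difference of genotype. The study's legends call each library a biological replicate from a mouse. The labels carry no mouse number, so whether F/F PBS and F/F Tat shared mice is not given in the sources used here, and p-values measure the spread between libraries.

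As background, the IKK complex is made of the kinases IKKα (Chuk) and IKKβ (Ikbkb) and the regulatory subunit NEMO (Ikbkg). In macrophages it is switched on downstream of Toll-like and cytokine receptors, where TAK1 (Map3k7) with its partners TAB1 and TAB2 phosphorylates IKKβ, which marks the IκB inhibitors for destruction and frees NF-κB. IKKε (Ikbke) and TBK1 (Tbk1) are related kinases best known for activating IRF3 in the interferon response. TPL2 (Map3k8) is a MAP3 kinase released for ERK signalling when IKKβ phosphorylates p105, and NIK (Map3k14) acts through IKKα in the non-canonical NF-κB pathway.

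TPM is the abundance of a transcript per length as a part of its library's total, so levels of different genes can be compared inside a library, but each value depends on all the others in its total. The median log2 difference of the 10451 tested genes was -0.65 with Tat in F/F macrophages and 0.22 with Ikbkb deletion under Tat. Differences of single genes and the counts of calls are therefore given on the TPM as deposited and again after median-ratio scaling, in which the values of a library were divided by the median of its ratios to a geometric mean library. Scaling brought the medians to -0.03 and 0.01. In each comparison and direction, the genes called on both scales were exactly those called on the scale with fewer calls. A call on both scales is thus the stricter call, and the other scale adds no separate support. All 10 macrophage markers checked were above a mean of 1 TPM in every group, and their sum was 26226 to 27197 TPM for F/F PBS, 10575 to 11154 TPM for F/F Tat and 8409 to 8696 TPM for ΔMye Tat. Most of that sum was Lyz2, the gene that holds the Cre, at 22382 ± 463 TPM (SD), 6993 ± 149 TPM and 4333 ± 178 TPM, and other markers did not follow it. With Tat the means of Cd14 (203, 842 and 1009 TPM in the order of the groups), Mertk (15.4, 20.1 and 24.3 TPM) and Fcgr1 (113, 300.1 and 164 TPM) were higher, and Adgre1 (499, 441 and 512 TPM), Csf1r (381, 64.0 and 104 TPM) and Spi1 (353, 264 and 369.6 TPM) were, like Cd14, higher in ΔMye Tat than in F/F Tat. The 8 neutrophil markers summed to 105 to 118, 192 to 210.1 and 228 to 249.7 TPM. A mean of 1 TPM was reached by 4, 3 and 3 of them, with Mpo at 0 throughout F/F PBS. Most of this sum was S100a8 (means 53.8, 68.6 and 91.4 TPM) and Csf3r (54.9, 128 and 144.8 TPM). Each other neutrophil marker had a mean of 2.31 TPM or less in every group. Of these, the mean of Camp rose over the groups and that of S100a9 fell. The 5 dendritic cell markers summed to 6.80 to 15.5, 41.3 to 46.1 and 22.4 to 26.8 TPM. Only Ccr7 reached a mean of 1 TPM (9.01, 42.3 and 23.4 TPM), so it made up most of that sum. Sums that rest on so few genes do not show by themselves a change in cell share. Marker lists of T, B and NK cells, mesothelial cells, eosinophils, mast cells and fibroblasts each summed to 46.3 TPM or less in every library, with Prg2 (F/F PBS) and Epx (both Tat groups) at 0. The part of other cells in the results was not tested, and in bulk RNA a lower share of cells that express a gene and less of its RNA per cell cannot be told apart.

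With Tat, 4 of the 10 genes rose and 4 fell in F/F macrophages at an adjusted p under 0.01 (limma), where 17% of all tested genes rose and 67.6% fell. After scaling 7 rose and 2 fell, where 37.1% of all genes rose and 38.1% fell. Ikbkg, Tbk1, Tab2 and Map3k8 rose on both scales (17% of all genes), and Map3k7 and Tab1 fell on both (38.1%). The F/F Tat range lay wholly above the F/F PBS range for 4 genes (15.3% of all genes) and wholly below it for 4 (62.4%). The largest fold change was 2.54 (Tab1), or 2.70 (Tbk1) after scaling, so none of the 10 passed a fold change of 3, where 5.21% of all genes rose and 19.4% fell past it. The median log2 difference of the 10 was -0.08 as deposited against -0.65 for all genes, and 0.55 against -0.03 after scaling.

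With Ikbkb deleted, 4 of the 10 genes were higher in ΔMye Tat than in F/F Tat and 1 was lower (limma, adjusted p under 0.01), where 38.8% of all tested genes were higher and 8.87% lower. The share of higher genes was thus close to that over all genes. The 1 lower gene was Ikbkb itself, the deleted gene. Its lower call follows from the design and is no result about the other genes, of which none was called lower. After scaling 2 were higher and 3 lower (Ikbkb, Ikbkg and Tbk1), where 16.4% of all genes were higher and 18.8% lower. Chuk and Map3k7 were higher on both scales, 2 of the 10 genes where 16.4% of all genes were. This count was thus also close to the share over all genes. Ikbkb was lower on both (8.87%). The ranges did not overlap for Chuk, Map3k7 and Map3k8 above (28.6% of all genes) and Ikbkb below (8.01%). The largest fold change was 1.43 (Ikbkb), or 1.65 after scaling, so none of the 10 passed a fold change of 3, where 0.440% of all genes were higher and 0.316% lower past it. The median log2 difference of the 10 was 0.25 against 0.22 for all genes, and 0.03 against 0.01 after scaling.

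**Figure D1:**
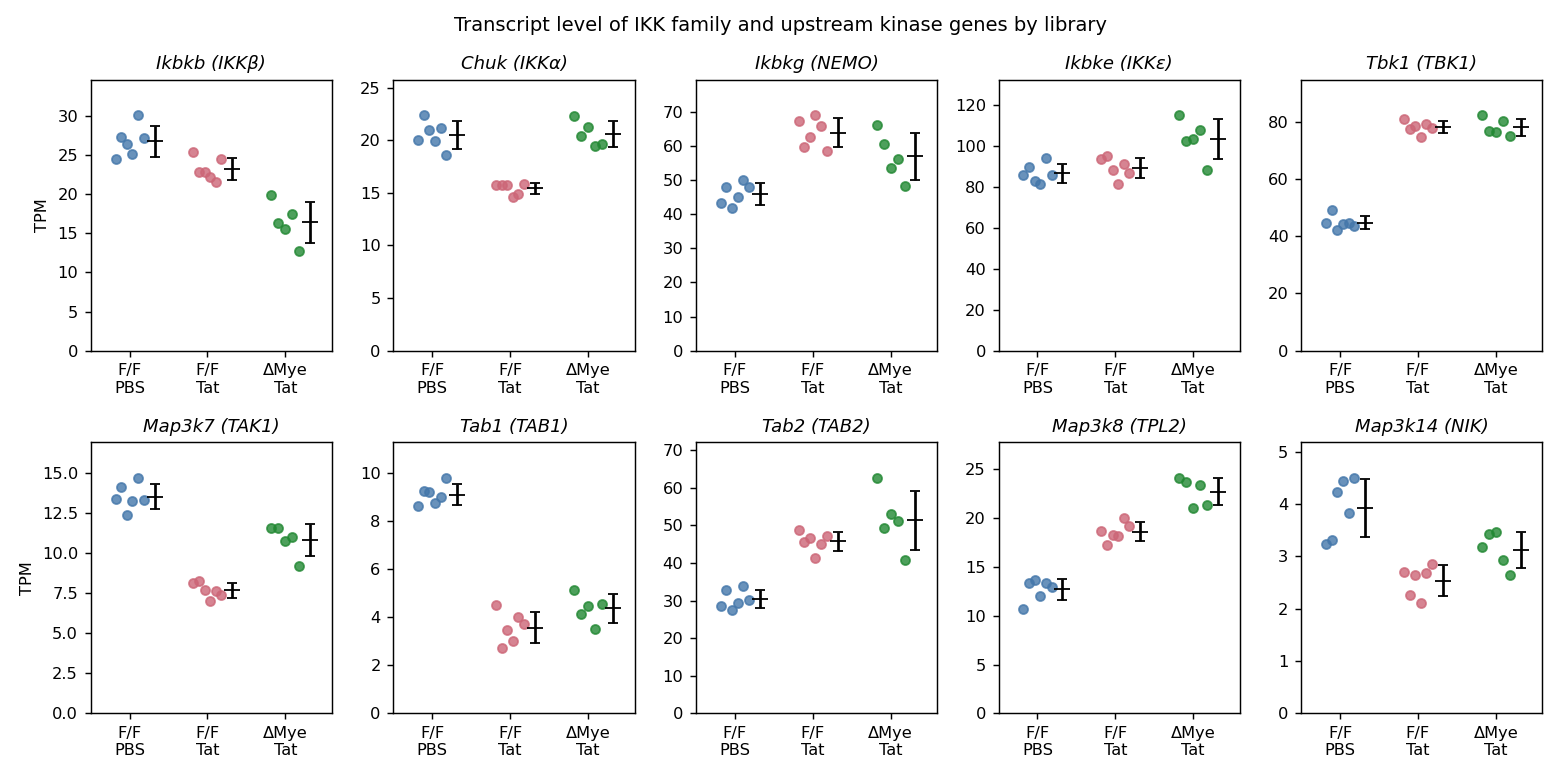
TPM of each of the 10 genes in every library of F/F PBS (n = 6), F/F Tat (n = 6) and ΔMye Tat (n = 5), with the mean and SD beside the points and each axis starting at 0. Ikbkb is lowest in the 5 ΔMye Tat libraries, whereas the Chuk and Map3k7 points of ΔMye Tat lie above all F/F Tat points.

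Ikbkb encodes IKKβ, the kinase removed in IKKβΔMye mice, and lies on the minus strand of chromosome 8 at 22659212 to 22706589 (GRCm38). Its level was 24.5 TPM in the lowest F/F PBS library, 26.8 at the median and 30.1 in the highest, and 21.6, 22.9 and 25.4 TPM in F/F Tat. In ΔMye Tat it was, from lowest to highest, 12.8, 15.6, 16.3, 17.5 and 19.9 TPM, in libraries 23, 21, 20, 22 and 19. Every ΔMye Tat library was below every F/F library, although by a small margin for library 19, and the spread was wider than in the other groups, with a coefficient of variation of 15.8% against 6.20% in F/F Tat. The log2 difference from F/F Tat was -0.51 (SE 0.08, limma adjusted p = 4.51e-05), and -0.72 (SE 0.07, adjusted p = 3.11e-08) after scaling. It was -0.43 without library 23 and -0.58 without library 19. The table holds 1 value per gene, so transcripts with and without the deleted part are summed, and the remaining TPM does not measure how many cells recombined. The Tat effect on Ikbkb in F/F macrophages had no fixed direction, with a log2 difference of -0.20 (adjusted p = 0.0244) as deposited and 0.43 (adjusted p = 4.12e-06) after scaling.

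Chuk encodes IKKα, the second catalytic subunit, on the minus strand of chromosome 19 at 44073335 to 44107480. The lowest, median and highest libraries were 18.6, 20.5 and 22.4 TPM in F/F PBS and 14.6, 15.7 and 15.9 TPM in F/F Tat. In ΔMye Tat, Chuk was at 22.3, 20.4, 21.2, 19.4 and 19.6 TPM in libraries 19 to 23, above every F/F Tat library and within the range of F/F PBS. Against F/F Tat it was higher by 0.41 on the log2 scale (SE 0.05, adjusted p = 2.36e-06), and by 0.20 (SE 0.05, adjusted p = 0.00121) after scaling. Leaving out any 1 library of ΔMye Tat or F/F Tat kept this difference between 0.38 and 0.43, or between 0.19 and 0.23 after scaling. F/F PBS does not enter the difference, so leaving out its libraries cannot move it. With Tat in F/F macrophages, Chuk was lower by 0.41 as deposited (adjusted p = 3.38e-07) but 0.22 higher after scaling (adjusted p = 1.06e-04). ΔMye Tat and F/F PBS differed by 0.01 (95% interval -0.10 to 0.12) on the TPM as deposited, and by 0.42 after scaling. Of the 31-base sequences in Chuk transcripts, 4.42% also occur in other genes, mainly in Gm17809.

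Ikbkg encodes NEMO, the regulatory subunit, on the plus strand of chromosome X at 74393290 to 74453854. It ran from 41.9 through a median of 46.4 to 49.9 TPM in F/F PBS and from 58.6 through 64.2 to 69.1 TPM in F/F Tat. The Tat groups overlapped, since ΔMye Tat was at 66.2, 60.7, 53.4, 56.1 and 48.4 TPM in libraries 19 to 23. Ikbkg rose with Tat by 0.47 on the log2 scale (SE 0.07, adjusted p = 1.73e-06), and by 1.10 (adjusted p = 4.11e-13) after scaling, with no overlap of the F/F groups. The difference of ΔMye Tat from F/F Tat was -0.17 (SE 0.07, adjusted p = 0.0427), and -0.38 (adjusted p = 2.01e-05) after scaling, so only the scaled value passed the threshold. Without library 19 the value as deposited passed too, at -0.23 (adjusted p = 0.00721). Ikbkg overlaps G6pdx over 19712 bases on the opposite strand and shares 364 of its 8230 31-base sequences with it, and whether the libraries kept strand is not given in the sources used here. G6pdx was at 184 ± 5.56 TPM for F/F PBS, 81.4 ± 2.37 TPM for F/F Tat and 99.1 ± 2.95 TPM for ΔMye Tat, an order unlike that of Ikbkg, and its part in the Ikbkg values was not tested.

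Ratios of genes within one library do not move with the scaling of that library, so the balance of the subunits was compared directly. Ikbkb exceeded Chuk in every F/F library, by a ratio of 1.22 (lowest), 1.26 (median) and 1.46 (highest) in F/F PBS and 1.45, 1.49 and 1.62 in F/F Tat. The ratio turned over in ΔMye Tat, where it was 0.890, 0.799, 0.736, 0.899 and 0.653 in libraries 19 to 23, so that Chuk exceeded Ikbkb in all 5. This change was -0.93 on the log2 scale against F/F Tat (adjusted p = 0.00354 over 18 ratio tests, two-sided exact permutation, with a raw p of 0.00216 that is the lowest possible here). The Ikbkb/Ikbkg ratio fell from 0.583 ± 0.0279 in F/F PBS to 0.365 ± 0.0364 in F/F Tat (adjusted p = 0.00354, exact permutation test) and was 0.287 ± 0.0203 in ΔMye Tat (adjusted p = 0.00649). Ikbkb is the deleted gene, so lower ratios of Ikbkb in ΔMye Tat follow at least in part from the design. Their p-values are therefore no test of the other subunits. Chuk/Ikbkg, which holds no Ikbkb, went from 0.447 ± 0.0385 to 0.243 ± 0.0232 with Tat and was 0.364 ± 0.0342 in ΔMye Tat, with no overlap in either comparison (adjusted p = 0.00354 for each, exact permutation test).

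Expressed as shares of the summed transcripts of the complex, Ikbkb made up 28.7% ± 0.868 (SD) for F/F PBS, 22.7% ± 1.46 for F/F Tat and 17.4% ± 1.19 for ΔMye Tat. Chuk made up 22.02% ± 1.38, 15.1% ± 0.938 and 22.04% ± 1.72. The NEMO transcript was the largest share in every library, at 49.3% ± 1.36, 62.2% ± 2.25 and 60.6% ± 1.21. The sum of the 3 genes was 93.3 ± 5.33, 102.5 ± 3.97 and 94.0 ± 10.1 TPM. Less Ikbkb in the sum raises the shares of the other subunits by arithmetic. The shares in ΔMye Tat thus do not show by themselves a change of Chuk or Ikbkg.

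**Figure D2:**
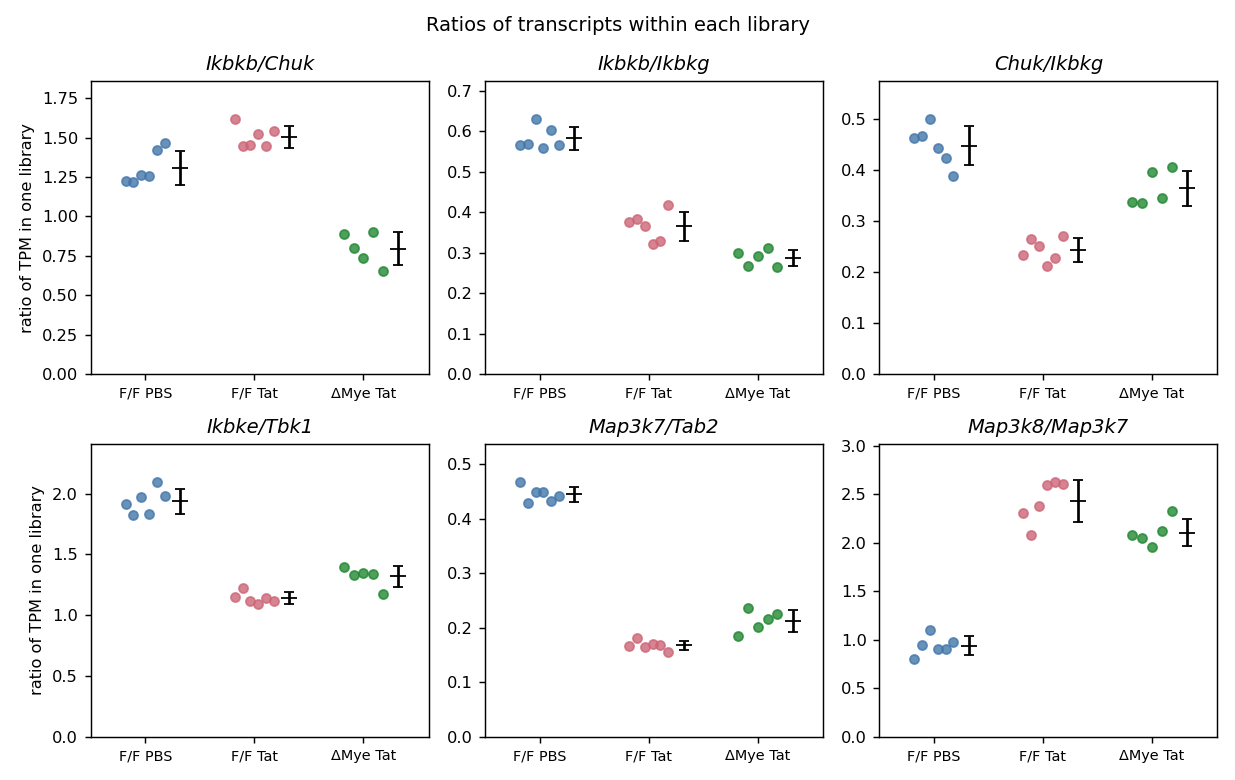
Ratios of 2 TPM values from the same library for 6 pairs of the genes, by group, with mean and SD and axes from 0. The Ikbkb/Chuk points of ΔMye Tat lie below 1 and those of both F/F groups above 1, and the other panels show the shifts of Ikbke/Tbk1, Map3k7/Tab2 and Map3k8/Map3k7 with Tat.

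The IKK-related kinases were the most abundant kinases of the 10. Ikbke, which encodes IKKε (chromosome 1, minus strand, 131254343 to 131279606), was first in mean level in every group. It was at 81.4 (lowest), 85.8 (median) and 93.8 TPM (highest) in F/F PBS and at 81.3, 89.4 and 94.9 TPM in F/F Tat. The ΔMye Tat libraries 19 to 23 had 114.9, 102.2, 103.1, 107.6 and 88.2 TPM, so 4 of 5 lay above all F/F Tat libraries and library 23 lay inside their range. Ikbke differed by 0.04 with Tat (95% interval -0.07 to 0.16, adjusted p = 0.450) on the TPM as deposited and rose by 0.68 (adjusted p = 1.38e-12) after scaling. In ΔMye Tat it was 0.21 higher than in F/F Tat (SE 0.06, adjusted p = 0.00435) as deposited, but the scaled difference was -0.01 (95% interval -0.09 to 0.07, adjusted p = 0.912). The adjusted p as deposited became 0.0121 without F/F Tat library 10, 0.0169 without ΔMye Tat library 19 and 0.0138 without library 22. The call was also lost in the exact permutation test (adjusted p = 0.0306) and under quantile normalization (0.12, limma adjusted p = 0.0548).

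Tbk1 encodes TBK1 (chromosome 10, minus strand, 121546455 to 121586787) and had the largest rise with Tat of the 10 genes. F/F PBS libraries had 42.1 (lowest), 44.5 (median) and 49.1 TPM (highest), whereas F/F Tat libraries had 74.6, 78.1 and 81.0 TPM. The values in ΔMye Tat were 82.4, 76.6, 76.5, 80.2 and 75.2 TPM, overlapping F/F Tat, with library 19 above its highest library. Tbk1 rose with Tat by 0.80 (SE 0.04, adjusted p = 8.49e-14), a fold change of 1.75, and by 1.43 (fold change 2.70) after scaling. Between ΔMye Tat and F/F Tat the difference was 0.00 (95% interval -0.08 to 0.08, adjusted p = 0.990) as deposited, and -0.21 (95% interval -0.28 to -0.14, adjusted p = 2.60e-05) after scaling.

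The pair thus changed its balance with Tat, the Ikbke/Tbk1 ratio going from 1.94 ± 0.101 in F/F PBS to 1.14 ± 0.0467 in F/F Tat (adjusted p = 0.00354, exact permutation test). It was 1.40, 1.33, 1.35, 1.34 and 1.17 in ΔMye Tat, higher than in F/F Tat in 4 of 5 libraries, with a log2 difference of 0.21 (adjusted p = 0.00899, exact permutation test). Tbk1 against Chuk rose from 2.19 ± 0.113 to 5.06 ± 0.166 with Tat and was 3.80 ± 0.201 in ΔMye Tat, without overlap in either comparison (adjusted p = 0.00354 for each, exact permutation test).

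Map3k7 encodes TAK1 (chromosome 4, plus strand, 31964097 to 32023467), the kinase above the IKK complex. It was at 12.4, 13.3 and 14.7 TPM in the lowest, median and highest F/F PBS library and at 7.004, 7.65 and 8.29 TPM in F/F Tat. In ΔMye Tat the levels were 11.6, 11.6, 10.7, 11.02 and 9.18 TPM, above all F/F Tat libraries and below all F/F PBS libraries. Map3k7 fell by 0.81 with Tat (SE 0.07, adjusted p = 6.47e-10), and by 0.18 (adjusted p = 0.00239) after scaling. Under quantile normalization the difference was -0.11 (adjusted p = 0.0363) and the call was lost. It was higher in ΔMye Tat than in F/F Tat by 0.49 (SE 0.07, adjusted p = 7.94e-06), the highest difference of the 10 genes on both scales, and by 0.28 (adjusted p = 2.35e-04) after scaling. With 1 library of ΔMye Tat or F/F Tat left out at a time the difference ran from 0.46 to 0.54, or from 0.25 to 0.31 scaled. The difference of ΔMye Tat from F/F PBS was -0.32 as deposited and 0.09 after scaling, a change of sign. Of the 6515 31-base sequences of Map3k7, 515 also occur in Gm8188, so reads could be counted in either.

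Chuk and Map3k7 were the 2 of the 10 genes higher in ΔMye Tat than in F/F Tat on both scales, where 16.4% of all genes were. That count is near the share over all genes, and it serves here only to choose which promoters are shown. The 250 bases before the annotated start sites of Chuk and Map3k7 follow (RefSeq, GRCm38.p6). With Tat in F/F macrophages both fell as deposited. After scaling they went opposite ways, with a log2 difference of 0.22 for Chuk and -0.18 for Map3k7. Both strands were searched for the κB consensus, the site bound by NF-κB, and a match is in capitals.
Chuk, chr19:44107478-44107727, minus strand: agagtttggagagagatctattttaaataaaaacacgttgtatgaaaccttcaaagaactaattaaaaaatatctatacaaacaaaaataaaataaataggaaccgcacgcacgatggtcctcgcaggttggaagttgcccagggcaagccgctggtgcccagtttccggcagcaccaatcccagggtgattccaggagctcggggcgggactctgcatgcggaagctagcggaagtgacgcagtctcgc
Map3k7, chr4:31963857-31964106, plus strand: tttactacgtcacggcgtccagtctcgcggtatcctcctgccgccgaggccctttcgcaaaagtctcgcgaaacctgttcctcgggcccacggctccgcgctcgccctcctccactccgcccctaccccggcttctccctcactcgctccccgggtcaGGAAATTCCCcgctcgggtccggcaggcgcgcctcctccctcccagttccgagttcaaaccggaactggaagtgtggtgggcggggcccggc
The Map3k7 window holds 1 match, GGAAATTCCC, beginning at position -92 from the start site, which reads as the consensus on the opposite strand, and the Chuk window holds none. Of 32851 windows of this length for all genes, 1281 (3.90%) hold a match. The table had windows for 7 of the 10 genes, 11 windows in all, and the Map3k7 window was the 1 with a match. Ikbkb, Tab1 and Map3k8 had no entry. A match is a run of letters, not a measured site.

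Tab1 and Tab2, which encode the binding partners of TAK1, moved in opposite directions with Tat. Tab1 (chromosome 15, plus strand, 80133127 to 80161707) was at 8.62, 9.11 and 9.82 TPM in the lowest, median and highest F/F PBS library and at 2.72, 3.60 and 4.50 TPM in F/F Tat. It was at 5.16, 4.14, 4.49, 3.52 and 4.54 TPM in ΔMye Tat, overlapping F/F Tat. The fall with Tat, 1.34 on the log2 scale (SE 0.11, adjusted p = 7.11e-10, a fold change of 2.54), was the largest difference of the 10 genes as deposited, and it was -0.72 (adjusted p = 4.21e-06) after scaling. ΔMye Tat differed from F/F Tat by 0.29 (95% interval 0.05 to 0.53, adjusted p = 0.0374), and by 0.08 (adjusted p = 0.571) after scaling.

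Tab2 (chromosome 10, minus strand, 7905653 to 7956230), which links TAK1 to ubiquitin chains, was at 27.6, 29.8 and 33.9 TPM in F/F PBS and at 41.2, 46.0 and 48.8 TPM in F/F Tat (lowest, median and highest). ΔMye Tat libraries 19 to 23 had 62.7, 49.2, 53.1, 51.1 and 40.9 TPM, a range that held all of F/F Tat. Tab2 rose with Tat by 0.59 (SE 0.08, adjusted p = 7.25e-07), and by 1.22 (adjusted p = 2.36e-13) after scaling. The difference with deletion was 0.16 (95% interval -0.01 to 0.33, adjusted p = 0.105) as deposited and -0.06 (95% interval -0.18 to 0.07, adjusted p = 0.477) after scaling. Without library 23 it was 0.24 (adjusted p = 0.00747) as deposited.

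Relative to its partners, the Map3k7/Tab2 ratio fell from 0.445 ± 0.0137 in F/F PBS to 0.168 ± 0.00851 in F/F Tat, a log2 difference of -1.41, and was 0.212 ± 0.0198 in ΔMye Tat, 0.33 higher (adjusted p = 0.00354 for each, exact permutation test, no overlap). Map3k7/Tab1 rose with Tat from 1.49 ± 0.114 to 2.21 ± 0.454 (adjusted p = 0.00354, exact permutation test). In ΔMye Tat it was 2.52 ± 0.445, a difference from F/F Tat that was within the spread of the libraries (p = 0.249, exact permutation test).

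Map3k8 encodes TPL2 (chromosome 18, minus strand, 4331327 to 4353015). Its lowest, median and highest levels were 10.7, 13.1 and 13.7 TPM in F/F PBS and 17.3, 18.5 and 20.03 TPM in F/F Tat. The 5 ΔMye Tat libraries, at 24.1, 23.7, 20.98, 23.3 and 21.4 TPM, were all above F/F Tat. Map3k8 rose with Tat by 0.55 (SE 0.06, adjusted p = 6.75e-08), and by 1.18 (adjusted p = 1.21e-13) after scaling. It was higher again in ΔMye Tat by 0.28 (SE 0.06, adjusted p = 9.33e-04) as deposited, but the scaled difference was 0.07 (95% interval -0.05 to 0.19, adjusted p = 0.308). The Map3k8/Map3k7 ratio went from 0.940 ± 0.0995 to 2.43 ± 0.216 with Tat (adjusted p = 0.00354, exact permutation test) and was 2.11 ± 0.138 in ΔMye Tat, 0.21 lower on the log2 scale (adjusted p = 0.0260, exact permutation test) with overlapping groups. That adjusted p rose above 0.05, to between 0.0514 and 0.0571, without F/F Tat library 9, 10, 11 or 12 or ΔMye Tat library 20 or 21.

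Map3k14 encodes NIK (chromosome 11, minus strand, 103219762 to 103267472) and had the lowest mean of the 10 genes in each group. It was at 3.24, 4.03 and 4.50 TPM in F/F PBS and at 2.11, 2.65 and 2.85 TPM in F/F Tat (lowest, median and highest). ΔMye Tat libraries had 3.19, 3.42, 3.47, 2.92 and 2.64 TPM, with 4 of 5 above all F/F Tat libraries. With Tat, Map3k14 fell by 0.61 (SE 0.11, adjusted p = 4.37e-05) as deposited, whereas the scaled difference was 0.01 (95% interval -0.22 to 0.23, adjusted p = 0.958) and quantile normalization gave 0.44 (adjusted p = 0.00113). In ΔMye Tat it differed from F/F Tat by 0.29 (95% interval 0.05 to 0.53, adjusted p = 0.0379), and by 0.09 (adjusted p = 0.557) after scaling. The Map3k14/Map3k7 ratio did not pass in either comparison, at 0.292 ± 0.0514, 0.331 ± 0.0398 and 0.289 ± 0.0222 (adjusted p = 0.156 and 0.0804, exact permutation test). Without F/F Tat library 8 the ratio passed for ΔMye Tat against F/F Tat, with a log2 difference of -0.24 (adjusted p = 0.0179, exact permutation test).

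**Figure D3:**
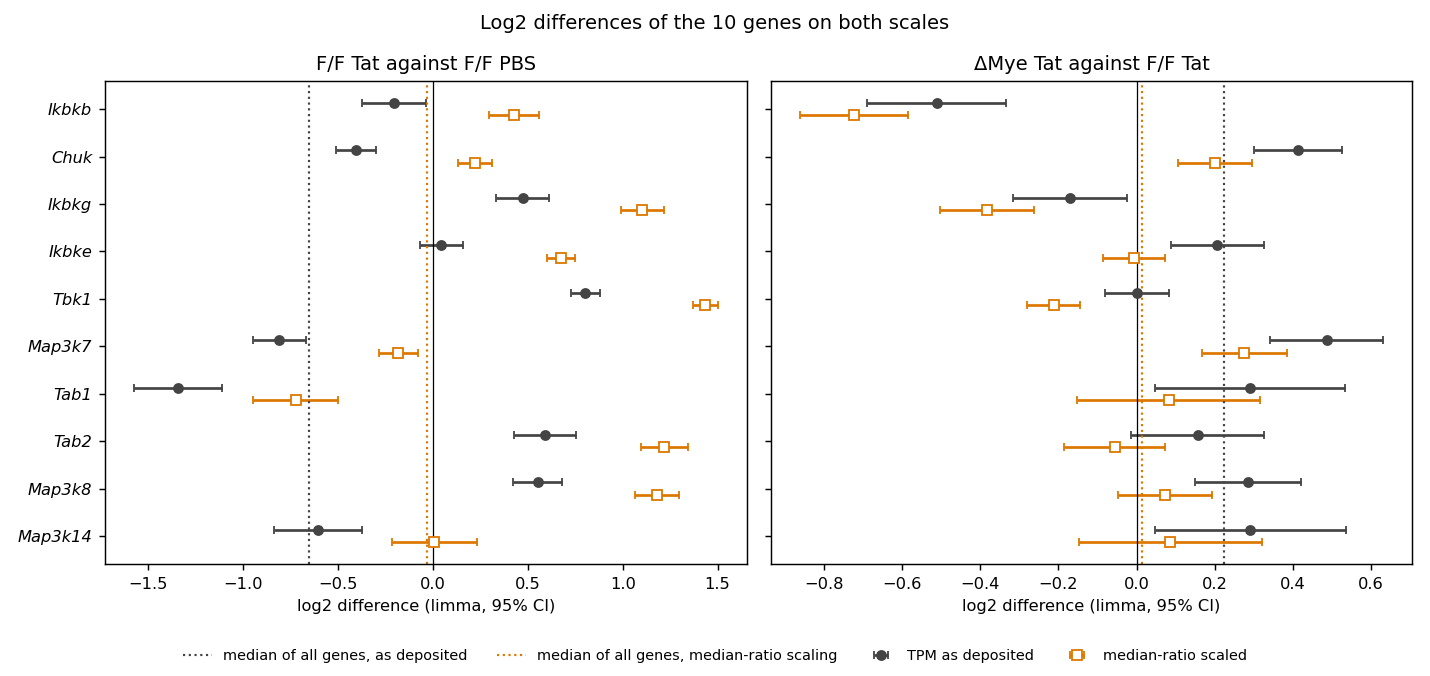
Log2 difference of each of the 10 genes with its 95% interval (limma), for Tat in F/F macrophages (left) and ΔMye Tat against F/F Tat (right), on the TPM as deposited (filled circles) and after median-ratio scaling (open squares). Dotted lines mark the median of all 10451 genes on each scale. Ikbkb, Chuk and Map3k14 change sign with scaling in the left panel. In the right panel Ikbke, Tbk1 and Tab2 change sign and the other genes keep their side. Of those, only Ikbkb, Chuk and Map3k7 had an adjusted p under 0.01 on both scales.

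The order of the 10 genes within a library does not depend on scaling either. In F/F PBS it ran Ikbke, Ikbkg, Tbk1, Tab2, Ikbkb, Chuk, Map3k7, Map3k8, Tab1 and Map3k14, and the ranges of Ikbkg and Tbk1, of Tab2 and Ikbkb, and of Map3k7 and Map3k8 overlapped. In F/F Tat, Tbk1 stood above Ikbkg and Map3k8 above Chuk, and only the ranges of Tab1 and Map3k14 overlapped among neighbours. In ΔMye Tat, Ikbkb dropped from the fifth place to the seventh, behind Map3k8 and Chuk, and the ranges of neighbours overlapped for Ikbkg with Tab2, Map3k8 with Chuk, and Chuk with Ikbkb.

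Places among all tested genes were read in the same way. Map3k8 had a higher mean than 45.3% of tested genes for F/F PBS, 64.8% for F/F Tat and 66.1% for ΔMye Tat, and Tbk1 than 76.7%, 87.0% and 86.2%. Ikbkb went from 65.7% through 69.2% to 58.8%, its lowest place with deletion. Chuk stood at 58.2%, 60.9% and 63.9%, and Map3k7 at 46.9%, 45.1% and 49.1%. Tab1 had the clearest loss of place with Tat, from 36.5% to 29.4%, and stayed at 29.4% in ΔMye Tat.

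ΔMye Tat and F/F PBS differ in genotype and in Tat treatment at once, and the parts of the 2 cannot be told apart. Against F/F PBS, which shares its libraries with the Tat comparison, ΔMye Tat had 5 of the 10 genes higher and 3 lower (limma, adjusted p under 0.01), where 17.5% of all genes were higher and 58.8% lower. After scaling 6 were higher and 2 lower, where 34.0% and 33.7% of all genes were. Ikbkg, Ikbke, Tbk1, Tab2 and Map3k8 were higher on both scales (17.5% of all genes), and Ikbkb and Tab1 lower on both (33.7%). Ikbke, at 0.25, lost its call in the exact permutation test (adjusted p = 0.0146). Ikbkb was at 61.3% of its F/F PBS mean, Tab1 at 47.9% and Map3k8 at 179%.

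Within ΔMye Tat the same 2 libraries marked the ends for most of the genes. Library 19 had the highest TPM of its group for 8 of the 10, and library 23 the lowest for 7 of the 10, including Ikbkb, Ikbkg, Ikbke, Tbk1, Map3k7, Tab2 and Map3k14. Over all tested genes library 19 was highest for 38.4% and library 23 lowest for 43.7%. After scaling the counts were 5 of the 10 for library 19 and 6 of the 10 for library 23, where the shares over all genes were 25.0% and 27.8%. The scaling factor of library 23 was 0.895, and those of the other 4 ran from 0.956 to 1.01. The cause of these shared extremes was not tested.

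**Figure D4:**
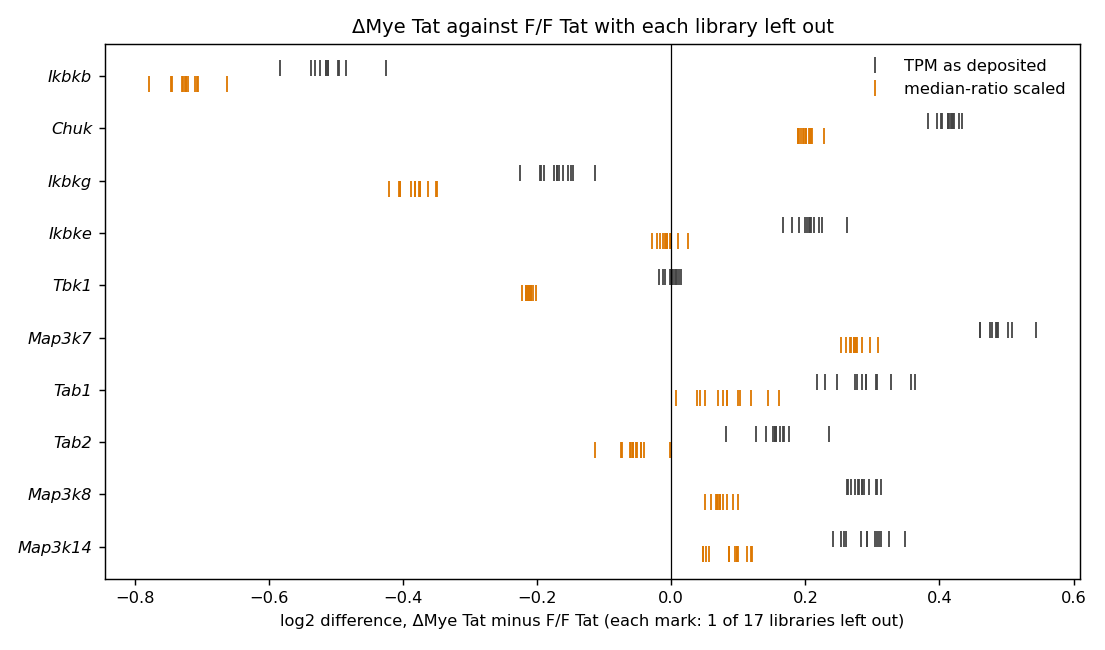
Log2 difference of ΔMye Tat against F/F Tat for each gene, refitted with 1 of the 17 libraries left out (1 mark per left-out library), on the TPM as deposited (upper marks) and after scaling (lower marks). Marks for left-out F/F PBS libraries fall on the full difference, since that group does not enter it. All marks of Ikbkb and Ikbkg lie below 0 on both scales. All marks of Chuk, Map3k7, Tab1, Map3k8 and Map3k14 lie above 0 on both. Those of Ikbke, Tbk1 and Tab2 change side between scales or libraries.

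Other genes of the pathway were taken from lists of related proteins. Among 17 receptor-proximal kinases and adaptors, 11 rose and 4 fell with Tat (17% and 67.6% of all genes), and 14 rose and 2 fell after scaling (37.1% and 38.1%). Traf1, an adaptor of TNF receptors, rose most, from 21.98 ± 2.85 to 396.8 ± 14.2 TPM (log2 difference 4.18, adjusted p = 3.92e-21, and 4.81 after scaling), and was at 325 ± 19.2 TPM in ΔMye Tat (-0.29, adjusted p = 0.00170, and -0.50 after scaling). Irak1, a kinase of the Toll-like receptor complex, fell by 1.53 with Tat (adjusted p = 3.12e-11, and -0.90 after scaling) and was 0.76 higher in ΔMye Tat than in F/F Tat (adjusted p = 7.02e-06, and 0.55 after scaling), at 41.9, 14.4 and 24.7 TPM in the order of the groups. The calls of both genes held after scaling. With deletion 5 of the 17 were higher and 2 lower as deposited (38.8% and 8.87% of all genes), and 2 higher and 7 lower after scaling (16.4% and 18.8%).

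The 10 tested MAP3 kinases outside the 10 genes (of 15 in the table) mostly moved in the direction of Map3k7. With Tat 9 fell, and after scaling 7 fell and 1 rose, where 67.6% and 38.1% of all genes fell. In ΔMye Tat 7 were higher than in F/F Tat, and after scaling 3 were higher, where 38.8% and 16.4% of all genes were higher. Map3k4, a kinase of the stress pathways, fell most, by 2.43 to 1.03 ± 0.189 TPM (adjusted p = 2.22e-13, and -1.83 after scaling), and Map3k10 had the largest difference with deletion, 0.77 (adjusted p = 3.72e-06) and 0.57 after scaling. Map3k11 had the smallest change with Tat among those that passed, a fall of 0.49 (adjusted p = 7.95e-06) that became 0.14 upward after scaling (adjusted p = 0.104). Map3k20 had the smallest with deletion, 0.36 (adjusted p = 0.00231), which was 0.16 (adjusted p = 0.110) after scaling and no longer passed. The median log2 difference of the list was -1.50 with Tat and 0.48 with deletion, and -0.88 and 0.27 after scaling. Of the 6 tested MAP2 kinases, 3 rose and 3 fell with Tat (17% and 67.6% of all genes), and 2 were higher and 1 lower with deletion (38.8% and 8.87%). After scaling 5 rose and 1 fell with Tat (37.1% and 38.1%), and 3 were lower with deletion (18.8%). Map2k1, which encodes the ERK kinase MEK1, rose by 1.63 with Tat (adjusted p = 3.13e-20, and by 2.26 after scaling) and differed by -0.43 in ΔMye Tat (adjusted p = 9.42e-10, and -0.65 after scaling). Map2k5 fell by 1.59 with Tat (adjusted p = 2.87e-13, and -0.97 after scaling). With deletion it was 0.29 higher (adjusted p = 0.00542), but 0.08 (adjusted p = 0.376) after scaling, so that call was lost.

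Downstream, 10 of 11 genes of the IκB, NF-κB and IRF proteins that these kinases act on rose with Tat, and all 11 after scaling, where 17% and 37.1% of all genes rose. The exception was Irf3, which fell by 0.32 (adjusted p = 8.84e-04) as deposited but rose by 0.30 (adjusted p = 0.00291) after scaling. Nfkb2, the precursor of p52, rose by 2.86, from 89.3 ± 3.35 to 649 ± 12.8 TPM (adjusted p = 5.41e-22, and by 3.49 after scaling). With deletion 4 were lower and 2 higher (8.87% and 38.8% of all genes), and after scaling 6 were lower, where 18.8% of all genes were lower. Irf7, a factor of the interferon response, had the lowest log2 difference, at 1208 ± 57.6 TPM in ΔMye Tat against 1866 ± 38.6 TPM in F/F Tat (log2 difference -0.63, adjusted p = 8.22e-12, and -0.84 after scaling). Irf3 was 0.31 higher (adjusted p = 0.00373), and 0.10 after scaling (adjusted p = 0.381).

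Among 15 adaptors of the IKK complex and TBK1, 7 rose and 6 fell with Tat (17% and 67.6% of all genes), or 10 and 2 after scaling (37.1% and 38.1%). With deletion 2 were higher and 5 lower (38.8% and 8.87%), or 1 and 7 after scaling (16.4% and 18.8%). Tnip1, which binds NEMO, rose by 1.88 with Tat to 302 ± 6.95 TPM (adjusted p = 8.94e-19, and by 2.51 after scaling), and Ikbip fell by 2.20 (adjusted p = 6.73e-08, and -1.60 after scaling). Hsp90aa1, a chaperone of the IKK kinases, was lowest with deletion (-0.45, adjusted p = 2.88e-08, and -0.66 after scaling) and Tbkbp1, an adaptor of TBK1, highest (0.51, adjusted p = 6.65e-05, and 0.30 after scaling, adjusted p = 0.00396). Of the 9 genes of the linear ubiquitin ligase and the deubiquitinases, 3 rose and 3 fell with Tat (17% and 67.6% of all genes), and 3 were higher and 2 lower with deletion (38.8% and 8.87%). After scaling 7 rose and 1 fell with Tat (37.1% and 38.1%), and 3 were lower with deletion (18.8%). Tnfaip3, which encodes the inhibitor A20, rose by 3.02 with Tat (adjusted p = 5.43e-20, and by 3.65 after scaling) and differed by -0.52 in ΔMye Tat (adjusted p = 5.90e-07, and -0.73 after scaling). Otulin fell by 0.96 with Tat (adjusted p = 1.04e-12, and -0.33 after scaling), and Sharpin was 0.39 higher with deletion (adjusted p = 0.00134) but 0.18 after scaling (adjusted p = 0.102).

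**Figure D5:**
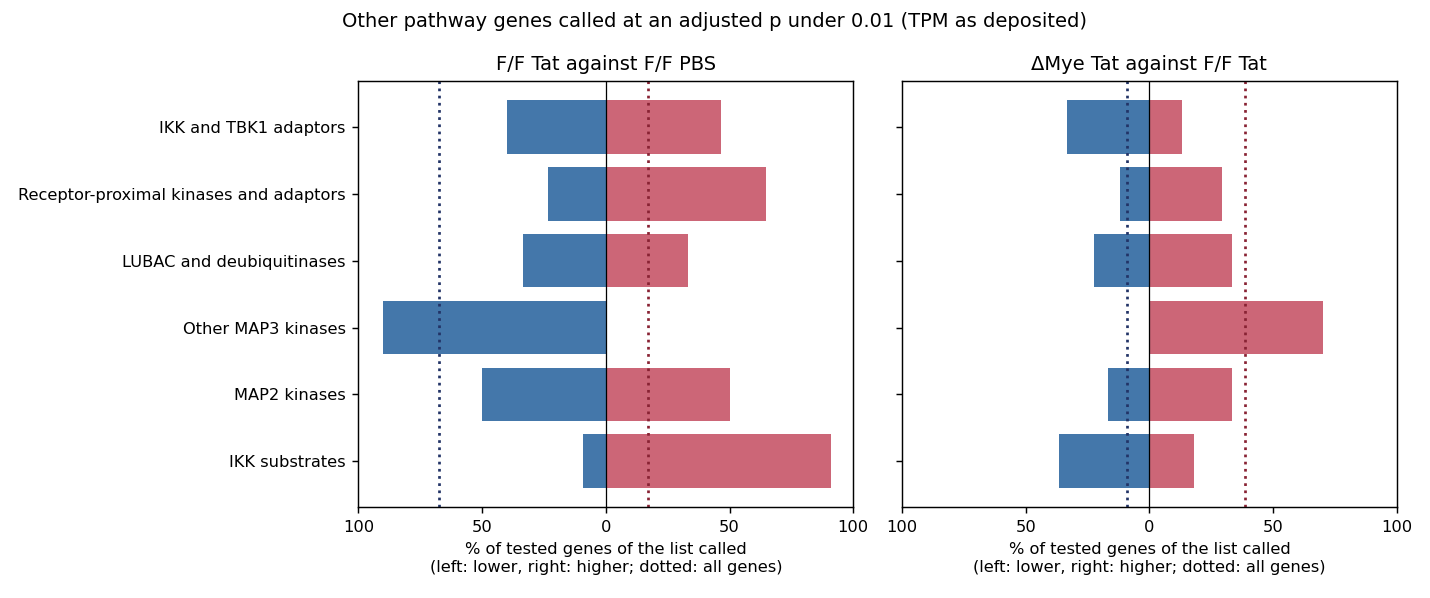
Share of the tested genes of 6 related lists that were called lower (left of 0) or higher (right of 0) at an adjusted p under 0.01 on the TPM as deposited, for both comparisons, with dotted lines at the shares over all genes. IKK substrates were mostly higher with Tat (10 of 11) and other MAP3 kinases mostly lower (9 of 10), and after scaling the split of several lists moved, for example MAP2 kinases with Tat from 3 higher and 3 lower to 5 higher and 1 lower.

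Genes whose pattern over the 17 libraries was most like that of 4 of the genes were found by Pearson's r of log2(TPM + 0.1), as a description in which all points share the 3 groups and the scaling of TPM. For Ikbkb these were Dock8 (r = 0.965), Sec61a1 (0.961) and Slc6a6 (0.960), and for Chuk Cyp4v3 (0.965), Hnrnpll (0.959) and Adam17 (0.959). Adam17, the protease that sheds TNF, was at a mean of 114 TPM for F/F PBS, 59.3 for F/F Tat and 109.6 for ΔMye Tat. For Ikbke they were Slc7a1 (0.949), Arhgap10 (0.946) and Vcl (0.939), and for Map3k8 Ctu1 (0.986), Zfp658 (0.978) and Actn1 (0.976). Among the 10 genes, Map3k8 was most like Tab2 (0.921) and Tbk1 (0.911), and Chuk most like Map3k7 (0.878), while Ikbkb had an r of -0.11 with Chuk and -0.20 with Ikbkg.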

How the data were processed

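RNA-Seq libraries of PMs were read as 1 table of TPM values per gene, deposited by the authors, who quantified transcripts with Salmon on the Ensembl GRCm38 transcriptome. The table holds no counts, so read depth is unknown, the authors' edgeR test could not be rerun, and no counting interval is given. Listed TPM summed to 889318 to 903576 per library. Of its symbols 26 had turned into dates, none of them a member.

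Groups followed the sample labels. Genes with 1 TPM or more in 5 libraries or more were tested as log2(TPM + 0.1) with limma 3.58.1 (R 4.3.3) over all 17 libraries, with 14 residual degrees of freedom and Benjamini-Hochberg adjustment over 10451 genes. Calls used an adjusted p under 0.01. Fold changes are on the log2(TPM + 0.1) scale, which understates changes of low genes. Ratios of TPM within a library were compared by two-sided exact permutation tests, adjusted over 18 tests and read at 0.05. Scripts were tested on simulated data.

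The members and lists were chosen with earlier results of these data known. All 10 members are named, with the highest and lowest called gene of each related list in each comparison and the 3 genes of highest r for Ikbkb, Chuk, Ikbke and Map3k8. Coordinates and shared 31-base sequences came from GENCODE M21 (GRCm38). Promoters came from RefSeq (GRCm38.p6), and protein sequences were not used here.

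Alternatives were pseudocounts of 0.5 and 1, a filter of 5 TPM and none, median-ratio scaling (from 11246 genes above 0 in all libraries), quantile normalization, a fold change over 3, only the groups compared, an exact permutation test and each library left out. Fits of the scaled values with a library left out were added after seeing the data, and they kept the scaling factors set from all 17 libraries.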

Additional observations from a re-analysis of the deposited data

Results flagged for a closer look

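The Ikbke/Tbk1 ratio of TPM in ΔMye Tat had 1 library far from the others. Library 23 was at 1.17, and the nearest of the other 4 was at 1.33, a gap of 0.724 of the whole range of the group, above the critical value of 0.71 for 5 samples. It was the 1 such case among 57 groups of values examined (30 of gene levels and 27 of ratios), where chance gives about 1 in 20.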

How the results depend on the processing

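No paired analysis was possible because the labels carry no mouse number, and the library numbers are unique to each library and say nothing about shared mice. Requiring a fold change over 3 left 0 members in either direction in both comparisons, with 545 genes higher and 2031 lower with Tat and 46 and 33 with deletion, by its own construction. Median-ratio scaling gave 7 members higher and 2 lower with Tat (3880 and 3985 of all genes) and 2 and 3 with deletion (1714 and 1969). Quantile normalization gave 8 and 1 with Tat (3605 and 4182 of all genes) and 2 and 2 with deletion (1845 and 1599). The exact permutation test called 2421 genes higher with deletion, against 4055. Scaling reversed Ikbkb (0.43), Chuk (0.22) and Map3k14 (0.0063) with Tat, Ikbke (-0.0060) and Tbk1 (-0.21) with deletion, and Map3k7 (0.094) in ΔMye Tat against F/F PBS. Quantile normalization reversed Ikbkb (0.24), Chuk (0.14) and Map3k14 (0.44) with Tat, and Map3k7 (0.12) and Map3k14 (0.43) in ΔMye Tat against F/F PBS. The cause was not tested. With 1 library left out, 4 to 4 members rose and 4 to 5 fell with Tat (1729 to 1797 and 6949 to 7122 of all genes), and 3 to 5 were higher and 1 to 2 lower with deletion (3659 to 4294 and 855 to 937). As deposited, the genes that scaling reversed ran from -0.23 to -0.17 (Ikbkb), -0.43 to -0.38 (Chuk) and -0.66 to -0.56 (Map3k14) with Tat, 0.17 to 0.26 (Ikbke) and -0.018 to 0.014 (Tbk1) with deletion, and -0.35 to -0.26 (Map3k7) in ΔMye Tat against F/F PBS. The 2 lower members arose without ΔMye Tat library 19, when Ikbkg joined Ikbkb. Ikbkb was called lower with Tat without ΔMye Tat library 23 (adjusted p = 0.00582, limma), and Tab1 higher with deletion without F/F Tat library 7 (0.36, adjusted p = 0.00995, limma). Leaving a library out of the fit of the scaled values, added after seeing the data, gave 7 and 2 members with Tat (3805 to 3931 and 3897 to 4037 of all genes) and 2 and 3 with deletion (1509 to 1689 and 1840 to 1989). The scaling factors, set from all 17 libraries, were not computed again, so their own dependence on a library was not tested. The reversed values then ran from 0.41 to 0.45 (Ikbkb), 0.20 to 0.24 (Chuk), 0.0063 to 0.051 (Map3k14, in 10 of 17 fits), -0.028 to -0.00059 (Ikbke, in 15 of 17), -0.22 to -0.20 (Tbk1) and 0.07 to 0.13 (Map3k7). A left-out library can move a log2 difference only if it belongs to 1 of the 2 groups compared, so the other fits repeat the full value. The filter of 5 TPM gave no value for Map3k14. With no read counts, the precision of low genes such as Map3k14 rests on the spread of libraries.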
